A study of Homo sapiens with 5 samples.

Results

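The genes described here are 41 heat shock chaperones that work in the cytosol, the nucleus or the mitochondrion, with their cofactors and heat shock factors. They were chosen by symbol, and all 41 were among the 11976 genes of the authors' deposited table. The RNA-seq groups were 3 bulk libraries labelled ERF knockout and 2 labelled wild type, all of HUDEP-2, a human erythroid progenitor line immortalised from umbilical cord blood. ERF is a transcriptional repressor of the ETS family. Titles of the wild-type libraries include the letters SCR, left unexplained by the labels. Whether the knockout is 1 clone or a pool, and at which culture stage RNA was taken, was not stated in the sources used here. The name of the authors' deposited comparison includes the letters Pre, which are also left unexplained and may refer to a stage. Both groups share the cell line, the Trizol extraction and the TruSeq library kit.

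Heat shock proteins bind unfolded protein chains, and many of them use ATP to help the chains fold. HSP70 proteins take up short hydrophobic stretches, J-domain proteins (HSP40) deliver clients to them, and nucleotide exchange factors such as the BAG and HSP110 proteins release the clients. HSP90 then matures kinases and receptors with its own co-chaperones, and ring-shaped chaperonins, HSP60 in mitochondria and TRiC in the cytosol, enclose clients while they fold. On heat or proteotoxic stress, the factor HSF1 binds repeats of nGAAn, the heat shock element, and raises many of these genes. In erythroid cells HSP70 protects the transcription factor GATA1 from caspase cleavage, and in β-thalassemia unpaired α-globin is known to hold HSP70 in the cytosol.

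Heat shock element letters were looked up near the RefSeq starts of the members, because many of them differed in the same direction in the comparison given below. A window from 250 bases before to 50 after a transcript start was on file for 37 of the 41 members (RefSeq, GRCh38.p14). HSPA14, HSF1, CCT6A and FKBP4 had none. The letters searched were GAANNTTC and TTCNNGAA, which hold 2 units of the element and are each their own reverse complement, and the same patterns lengthened by NN and another unit in alternating orientation (GAANNTTC then NNGAA, or TTCNNGAA then NNTTC). The longer patterns, of 3 units, are each other's reverse complement, so both strands were covered. Every match with 3 units contains matches with 2 units. A match with 2 units was present in 18 of 37 members (48.6%, exact 95% binomial interval 31.9 to 65.6), against 1134 of 8440 other measured genes with a window (13.4%). A match with 3 units was present in 7 of 37 members (18.9%, interval 7.96 to 35.2), against 35 of 8440 other measured genes (0.415%). Over all 35116 RefSeq windows of that length, 13.5% held 2 units and 0.490% held 3 units. The members were picked as heat shock genes, many of them known to be raised by HSF1, so a higher share was foreseeable. The intervals treat genes as independent draws. A hand-picked list that includes the nearly identical HSPA1A and HSPA1B does not meet that condition. The difference in shares was not tested.

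The stretches that hold the matches with 3 units are shown for those 7 members, and stretches with 2 units for HSPA1A, HSPA1B and DNAJB1, classic heat-inducible genes. Further matches with 2 units, at bases -205 and -23 of CHORDC1, base -198 of DNAJA1 and base 2 of another DNAJB1 start, are not shown. All run 5′ to 3′ on the gene's strand, capitals mark the matched letters, and positions count from the RefSeq start.
HSPA8, bases -65 to -36, chr11:123062172-123062201, minus strand: ggcgggccccTTCTGGAAGGTTCtaagata
HSPA8, bases -240 to -211, chr11:123062347-123062376, minus strand: gggcgagcttGAAAGTTCCAGAAcgctgcg
CHORDC1, bases -66 to -37, chr11:90223086-90223115, minus strand: cgaccgGAAAATTCGCGAAGGTTCCTGAAa
HSP90AA1, bases -90 to -61, chr14:102087105-102087134, minus strand: tcTTCCGGAAGGTTCgggaggcTTCTGGAA
HSP90AB1, bases -180 to -95, chr6:44247763-44247848, plus strand: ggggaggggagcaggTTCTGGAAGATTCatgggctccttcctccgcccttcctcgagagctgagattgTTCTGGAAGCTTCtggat
DNAJA1, bases 1 to 30, chr9:33025273-33025302, plus strand: gcgGAACTTTCCAGAAcgctcggtgagagg
DNAJB6, bases -140 to -111, chr7:157336864-157336893, plus strand: aagagccgaGAACCTTCGCGAAggtggggc
HSPD1, bases -250 to -221, chr2:197500061-197500090, minus strand: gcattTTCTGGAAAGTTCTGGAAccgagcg
HSPA1A, bases -130 to -80, chr6:31815413-31815463, plus strand: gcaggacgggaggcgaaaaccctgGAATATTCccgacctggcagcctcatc
HSPA1B, bases -129 to -79, chr6:31827609-31827659, plus strand: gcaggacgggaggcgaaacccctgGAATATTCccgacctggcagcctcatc
DNAJB1, bases -90 to -30, chr19:14518427-14518487, minus strand: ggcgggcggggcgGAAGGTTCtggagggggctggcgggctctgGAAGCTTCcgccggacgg

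CHORDC1 carried 3 overlapping matches with 3 units, the most of any member, and HSPA8, HSP90AB1 and HSPD1 carried 2 each. The HSP90AB1 matches lay before the third RefSeq start along that gene. The HSPA1A and HSPA1B windows upstream of the start were 93.6% identical when aligned end to end. The stretches of HSPA8, CHORDC1, HSP90AA1, DNAJA1 and HSPD1 lie within an annotated exon of some transcript of their gene (GENCODE v29, GRCh38), which can begin upstream of the RefSeq start used.

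The direction of the comparison had to be assumed. No reference is named in the header of the authors' deposited table, so log2 fold changes were signed such that the γ-globin gene HBG2 is higher in the knockout, as the series title implies; HBG2 then stood at a log2 fold change of 1.88 (SE 0.22). Under that sign ERF RNA went against the label: by the authors' deposited table it was 1.85-fold higher where the label says knockout (log2 fold change 0.89, SE 0.07, 95% interval 0.73 to 1.04, adjusted p = 6.44e-06). Read the other way, HBG2, ERF and every direction below exchange together. All 12 erythroid markers looked up were measured, KLF1 and GATA1 among them at 8.15 and 7.36 log2 CPM (counts scaled to library size) in the authors' deposited table. Of the 12, the authors' deposited table gives 8 as higher (66.7%) and 0 as lower, and 4 did not pass an adjusted p below 0.05. Over all genes, 24.9% were higher and 25.9% lower by that rule. The largest differences of the 12 were SLC4A1 at 1.77, HBD at 1.37, HBA2 at 1.06 and TFRC at 1.01 in the authors' deposited table. Erythroid markers thus also differed between the groups. Of 14 markers of other blood lineages, 2 were listed: ITGA2B, a megakaryocyte and progenitor integrin, at 7.26 log2 CPM, and LYZ, which that table gives as 0.48 log2 CPM. Their part in the results was not tested. The table has no value per library, so none is given, depth is unknown, and whether libraries overlap cannot be seen. The labels do not say whether libraries are separate cultures, so the spread behind the p-values may be technical only.

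Chaperone RNA was broadly higher in the libraries labelled ERF knockout. Of the 41 members, 32 were higher, 1 was lower and 8 did not pass an adjusted p below 0.05 in the authors' deposited table. Over all genes, 50.9% passed, 24.9% were higher and 25.9% lower by the same rule in the authors' deposited table, and 78.0% of the members were higher. The median log2 fold change was 0.30 over the members and -0.00 over all genes in the authors' deposited table. Members are well expressed, and 37 had a mean of at least 5 log2 CPM; of those, 30 were higher and 1 lower, where all 5214 genes at that level had 31.8% higher and 24.4% lower in the authors' deposited table. A log2 fold change of at least 1 was reached by 6 members (14.6%), against 1.01% of all genes in the authors' deposited table. In the authors' deposited table, 15 members were at rank 500 or better by p, a rank held by 505 genes with ties (4.22% of all). In bulk RNA, a change in the make-up of the culture and a change in RNA per cell cannot be told apart.

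**Figure D1:**
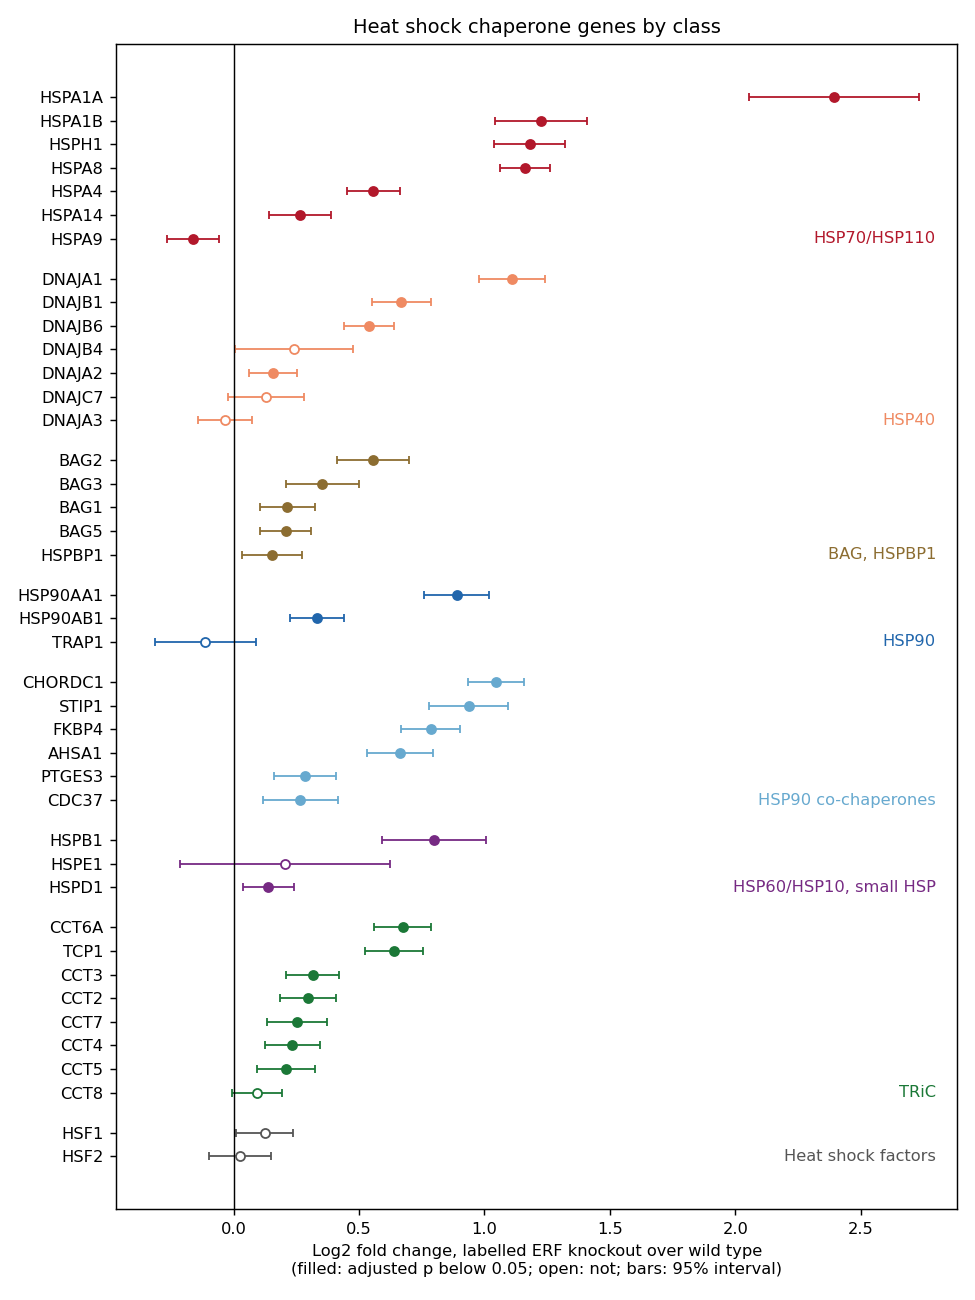
Log2 fold change of each of the 41 members, libraries labelled ERF knockout over wild type, grouped by chaperone class, from the authors' deposited table. Points are filled where adjusted p is below 0.05 and bars are 95% intervals. HSPA1A is farthest right at 2.39 and HSPA9 is the only filled point left of 0, at -0.16.

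The cytosolic HSP70 and HSP110 genes held the largest differences. Of 7 HSP70 and HSP110 genes, 6 were higher and 1 lower; the authors' deposited table gives them a median log2 fold change of 1.16. HSPA1A, the heat-inducible HSP70, was 5.25-fold higher by the authors' deposited table (log2 fold change 2.39, SE 0.15, interval 2.05 to 2.73, adjusted p = 1.47e-06). HSPA1B, which encodes the same HSP70 protein from the neighbouring gene, stood at 1.23 by the authors' deposited table (SE 0.08, interval 1.04 to 1.41, adjusted p = 2.13e-06). The copies are nearly identical, so the split of reads between them is uncertain; their means were 2.10 log2 CPM for HSPA1A and 4.33 log2 CPM for HSPA1B in the authors' deposited table. A processed transcript also covers 36.5% of the HSPA1B exon bases on the same strand (GENCODE v29).

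HSPA8, the constitutive HSC70 that also strips clathrin coats, was 2.24-fold higher by the authors' deposited table (log2 fold change 1.16, SE 0.04, interval 1.06 to 1.26, adjusted p = 5.05e-08). By p-value it ranked at place 23 of all genes, the first of the members in the authors' deposited table. HSPH1, the HSP110 that exchanges nucleotide on HSP70, was 2.27-fold higher by the authors' deposited table (log2 fold change 1.18, SE 0.06, interval 1.04 to 1.32, adjusted p = 4.97e-07). HSPA4, a second HSP110-type exchange factor, stood at 0.56, and HSPA14, an HSP70-like protein that works at the ribosome, at 0.27 in the authors' deposited table. Both were higher. Another gene entry of the same symbol covers 17.4% of the HSPA14 exon bases on the same strand (GENCODE v29). HSPA9, the HSP70 of the mitochondrial matrix, was the only lower member, at -0.16 by the authors' deposited table (SE 0.05, interval -0.27 to -0.06, adjusted p = 0.0148). HSPA8 and HSPH1 therefore had intervals wholly above those of HSPA4, HSPA14 and HSPA9, although differences between genes were not tested themselves.

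Among J-domain co-chaperones, 4 of 7 were higher and 3 did not pass, and the median was 0.24 in the authors' deposited table. DNAJA1, a farnesylated partner of HSPA8, led the class at 2.16-fold higher by the authors' deposited table (log2 fold change 1.11, SE 0.06, interval 0.98 to 1.24, adjusted p = 4.04e-07). DNAJB1, the heat-inducible HSP40, stood at 0.67 and DNAJB6, which suppresses aggregation of polyglutamine proteins, at 0.54 in the authors' deposited table; both were higher. DNAJA2, a close relative of DNAJA1, was higher by only 0.16 in the authors' deposited table. The members that did not pass were DNAJB4 at 0.24, DNAJC7, which links HSP70 and HSP90, at 0.13, and DNAJA3, the J-domain protein of mitochondria, at -0.03 (-0.14 to 0.07) in the authors' deposited table. DNAJB4 had the widest interval of the class, 0.00 to 0.48, at a mean of 4.16 log2 CPM in the authors' deposited table.

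All 5 BAG and HSPBP1 genes, which control nucleotide exchange on HSP70, were higher by small amounts, and the median was 0.21 in the authors' deposited table. BAG2, an inhibitor of the ubiquitin ligase CHIP, was the highest, 1.47-fold higher by the authors' deposited table (log2 fold change 0.56, SE 0.06, interval 0.41 to 0.70, adjusted p = 7.05e-05). RAB23 covers 42.7% of the BAG2 exon bases on the opposite strand (GENCODE v29), and the strand setting used to count reads was not given in the sources used here. BAG3, an HSF1 target that directs clients to autophagy, stood at 0.35, BAG1, which links HSP70 to the proteasome, at 0.21, and BAG5 at 0.21 in the authors' deposited table. HSPBP1 was the lowest of the class, at 0.15 by the authors' deposited table (SE 0.05, interval 0.03 to 0.27, adjusted p = 0.0351).

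The HSP90 paralogs differed in size. HSP90AA1, the inducible cytosolic HSP90, was 1.85-fold higher by the authors' deposited table (log2 fold change 0.89, SE 0.06, interval 0.76 to 1.02, adjusted p = 1.75e-06). HSP90AB1, the constitutive paralog, was 1.26-fold higher by the authors' deposited table (log2 fold change 0.33, SE 0.05, interval 0.22 to 0.44). These intervals did not overlap, and the difference between the paralogs was not tested. TRAP1, the mitochondrial HSP90, did not pass, at -0.11 by the authors' deposited table (SE 0.09, interval -0.32 to 0.09, adjusted p = 0.328). DNASE1 covers 29.3% of the TRAP1 exon bases on the opposite strand (GENCODE v29).

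Every one of the 6 HSP90 co-chaperones was higher, and the median was 0.72 in the authors' deposited table. CHORDC1, which binds the HSP90 ATPase domain, was 2.06-fold higher by the authors' deposited table (log2 fold change 1.04, SE 0.05, interval 0.93 to 1.16, adjusted p = 2.27e-07). STIP1, the HOP adaptor that passes clients from HSP70 to HSP90, stood at 0.94, the immunophilin FKBP4 at 0.79, and AHSA1, which activates the HSP90 ATPase, at 0.66 in the authors' deposited table. PTGES3, the p23 protein that holds the closed HSP90 state, stood at 0.28, and CDC37, the adaptor for kinases, was the lowest at 0.27 by the authors' deposited table (SE 0.07, interval 0.12 to 0.41, adjusted p = 0.00747). The upper 4 co-chaperones thus had intervals above those of PTGES3 and CDC37.

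HSPB1, the small heat shock protein HSP27, was 1.74-fold higher by the authors' deposited table (log2 fold change 0.80, SE 0.09, interval 0.59 to 1.01, adjusted p = 7.51e-05). Both genes of the mitochondrial chaperonin stood closer to 0. HSPD1, the HSP60 barrel, was 1.10-fold higher by the authors' deposited table (log2 fold change 0.14, SE 0.05, interval 0.04 to 0.24, adjusted p = 0.0274). HSPE1, its HSP10 lid, is transcribed head to head with it and did not pass, at 0.20 by the authors' deposited table (SE 0.19, interval -0.21 to 0.62, adjusted p = 0.386). HSPE1 had 26 pseudogenes named by its symbol, P and a number in GENCODE v29, the most of any member by that naming rule. Its mean of 2.01 log2 CPM was the lowest of the members in the authors' deposited table. HSPE1-MOB4 covers 9.71% of the HSPE1 exon bases on the same strand, and HSPD1 covers 14.2% on the opposite strand (GENCODE v29). Whether reads lost to copies or to these overlaps contribute to the mean of HSPE1 was not tested.

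TRiC, the cytosolic chaperonin of 8 different subunits that folds actin and tubulin, was higher in 7 of 8 subunits, and the median was 0.28 in the authors' deposited table. CCT6A was 1.59-fold higher by the authors' deposited table (log2 fold change 0.67, SE 0.05, interval 0.56 to 0.79, adjusted p = 4.88e-06). TCP1, the α subunit, stood at 0.64 (interval 0.52 to 0.76) in the authors' deposited table. The next subunits lay close together: CCT3 at 0.32, CCT2 at 0.30, CCT7 at 0.25, CCT4 at 0.23 and CCT5 at 0.21 in the authors' deposited table. Their intervals overlapped each other and lay below those of CCT6A and TCP1. CCT8, the lowest, did not pass, at 0.09 by the authors' deposited table (SE 0.05, interval -0.01 to 0.19, adjusted p = 0.113). The RNAs of this fixed complex thus differed by unequal amounts. The pseudogenes CCT6P1 at 0.03 and CCT6P3 at -0.30, at 2.58 and 2.62 log2 CPM, did not pass in the authors' deposited table. An antisense gene covers 30.1% of the CCT5 exon bases (GENCODE v29).

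The heat shock factors themselves did not pass. HSF1, the main activator of these genes, stood at 0.12 by the authors' deposited table (SE 0.05, interval 0.01 to 0.24, adjusted p = 0.0649). HSF2, which forms mixed trimers with HSF1, stood at 0.03 by the authors' deposited table (SE 0.06, interval -0.10 to 0.15, adjusted p = 0.709). HSF1 is controlled mainly at the protein level, which RNA abundance does not measure.

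**Figure D2:**
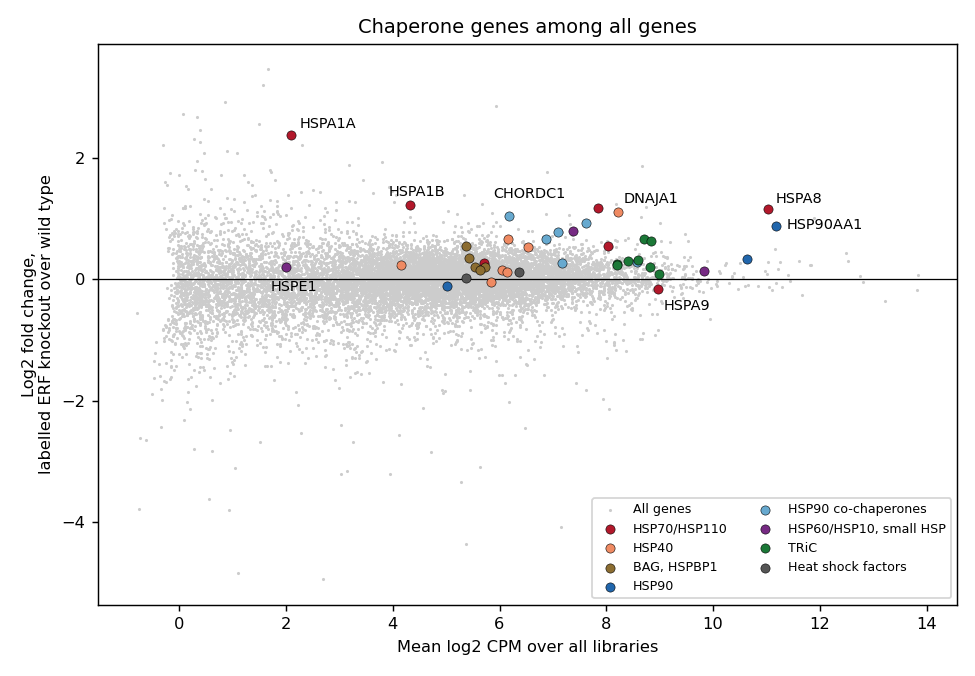
Log2 fold change (libraries labelled ERF knockout over wild type) against mean log2 CPM over all libraries for all 11976 genes in grey and the 41 members in the colour of their class, from the authors' deposited table. Most members lie above 0 across the range of expression, with HSPA8 at 1.16 and HSP90AA1 at 0.89 among the most abundant RNAs.

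Levels of different genes were compared as mean log2 CPM per kilobase of exon (union of exons, GENCODE v29), computed from the authors' deposited table. On that scale the highest levels were those of HSP90AB1 at 9.07, HSP90AA1 at 8.79, HSPA8 at 8.75, HSPD1 at 7.75 and CCT8 at 7.24, from the authors' deposited table. The lowest were HSPE1 at 1.02 and HSPA1A at 0.79, from the authors' deposited table. HSPA8 and HSPD1 each have 17 named pseudogenes in GENCODE v29 and DNAJA1 has 6, so their levels are uncertain where reads fit a copy as well. Copies named in another form, such as CCT6P1, were not counted. A count of 0, as for HSP90AA1 and HSP90AB1, therefore does not mean that a gene has no copies. Among these 5 most abundant members, log2 fold changes ran from 0.09 for CCT8 to 1.16 for HSPA8 in the authors' deposited table.

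The members were also grouped by heat inducibility and by cellular compartment, with their values known. Of 15 members classed as heat-inducible from textbook knowledge, 14 were higher and 0 lower, and the median was 0.89 in the authors' deposited table. All 6 members at a log2 fold change of 1 or more were in this list, HSPA8, called constitutive above, among them. Because the values were known, the grouping is not independent of them. The 26 members outside the list had 18 higher and 1 lower, a median of 0.24 and a highest value of 0.67 in the authors' deposited table. HSPE1 was the heat-inducible member that did not pass. Of the 5 members that work in mitochondria (HSPA9, HSPD1, HSPE1, TRAP1 and DNAJA3), 1 was higher, 1 lower and 3 did not pass, and the median was -0.03 in the authors' deposited table. Among the other 36 members, 31 were higher and 0 lower, and the median was 0.34 in the authors' deposited table. Neither difference between groupings was tested.

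**Figure D3:**
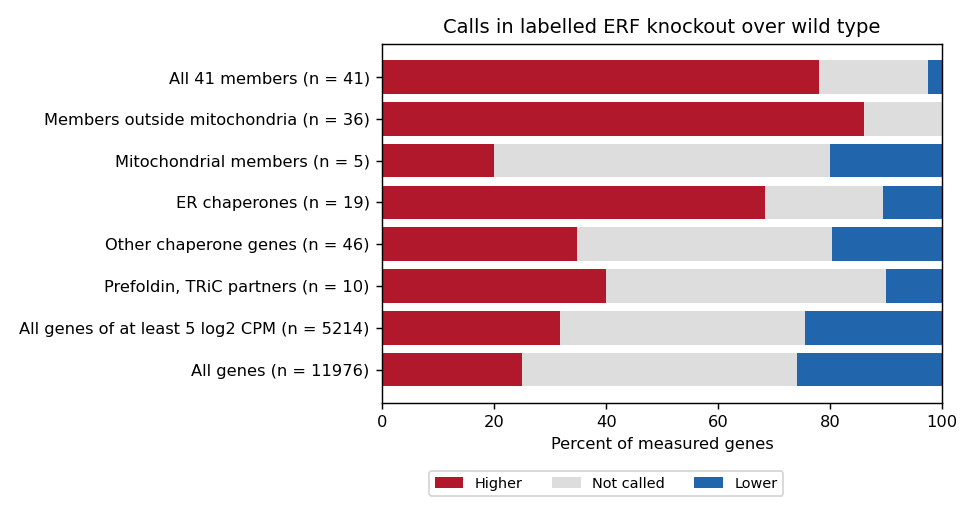
Percent of measured genes that were higher, not past an adjusted p below 0.05, or lower in libraries labelled ERF knockout over wild type, for the members, other gene lists and all genes, from the authors' deposited table. The bar of all members is 78.0% higher, and the bar of all genes is 24.9% higher.

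Chaperone genes outside both the members and the ER list given below went in both directions. Of 52 such genes, 46 were measured. Of these, 16 were higher (34.8%), 9 lower (19.6%) and 21 did not pass, and the median was 0.05 in the authors' deposited table. These shares were near those of all genes of at least 5 log2 CPM, 31.8% higher and 24.4% lower. Over all genes they were 24.9% and 25.9% in the authors' deposited table. The highest called genes were HSPA2, an HSP70 best known from the testis, at 1.29, HSPA4L, a relative of HSPA4, at 0.79, and the segregase VCP at 0.46 in the authors' deposited table. The lowest called genes were HSPA13, a microsomal HSP70, at -1.41, the mitochondrial exchange factor GRPEL2 at -1.06 and the mitochondrial protease LONP1 at -0.75 in the authors' deposited table. GRPEL1, the other exchange factor of HSPA9, was higher at 0.37 in the authors' deposited table. Several genes known to be raised by heat were not past the threshold and were chosen after their values were seen: HSPA6, an HSP70 expressed mainly under stress, stood at 0.05 (interval -0.13 to 0.24), SERPINH1 at 0.02 and UBB at -0.14 in the authors' deposited table.

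The TRiC partners that passed were higher, and the only lower gene of their list was CCT6B, itself a subunit. Of 10 prefoldin, phosducin-like and related genes, 4 were higher (40%), 1 lower (10%) and 5 did not pass, and the median was 0.09 in the authors' deposited table. Over all genes, 24.9% were higher and 25.9% lower in the authors' deposited table. PFDN2 at 0.36, PFDN1 at 0.33, the phosducin-like PDCL3 at 0.31 and TXNDC9 at 0.28 were higher, and CCT6B, a testis-type subunit at 0.71 log2 CPM, stood lower at -0.89 by the authors' deposited table. ER chaperones, which serve secreted proteins, had 13 of 19 higher (68.4%) and 2 lower (10.5%), and the median was 0.53 in the authors' deposited table. A log2 fold change of at least 1 was reached by 4 of them (21.1%), against 14.6% of the members and 1.01% of all genes. A broad upward difference was thus not particular to the members. HSPA5, the HSP70 of the ER, stood at 1.87, SDF2L1 at 1.29 and MANF at 1.28, while the oxidase ERO1L at -0.36 and ERP29 at -0.33 were lower in the authors' deposited table. The differences of these lists from the members were not tested. Of the genes on the ER list, 2 of 17 with a window (11.8%) held 2 units of the heat shock element, and 0 held 3 units. The exact 95% binomial bound, up to 19.5%, treats this hand-picked list as independent draws. The 0 depends on how the list was drawn. SERPINH1, also a chaperone of the ER, was counted with the other chaperone genes and held 3 units.

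Set beside the sequences above, all 7 members with 3 units of the element were higher, with a median log2 fold change of 0.89 and a range from 0.14 for HSPD1 to 1.16 for HSPA8 in the authors' deposited table. Of the 30 members with a window and no such match, 22 were higher and 1 lower, and the median was 0.26 in the authors' deposited table. Their levels also differed, with a median of 9.84 log2 CPM for the 7 and 6.52 log2 CPM for the 30 in the authors' deposited table. With 2 units, 16 of 18 members were higher, against 13 of 19 members without a match in the authors' deposited table. HSPA9, the lower member, held 2 units at base -4. HSPH1, at 1.18 in the authors' deposited table, held no match in its window, and HSPA1A and HSPA1B, with the highest values, held 2 units but not 3. Only exact letters and spacing were searched, so imperfect units, or elements outside the window, would be missed. Of the other measured genes, 9 of 35 with 3 units were higher (25.7%), against 2237 of 8405 without (26.6%), in the authors' deposited table. Lower in the authors' deposited table were 5 of the 35 (14.3%), against 2117 of the 8405 (25.2%), and the medians were 0.08 with 3 units and 0.01 without. Of 44 other chaperone and TRiC partner genes with a window, 9 held 2 units (20.5%) and 2 held 3 units (4.55%). Those with 3 units were HSPA6 at 0.05 and SERPINH1 at 0.02, which did not pass in the authors' deposited table. These differences were not tested.

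**Figure D4:**
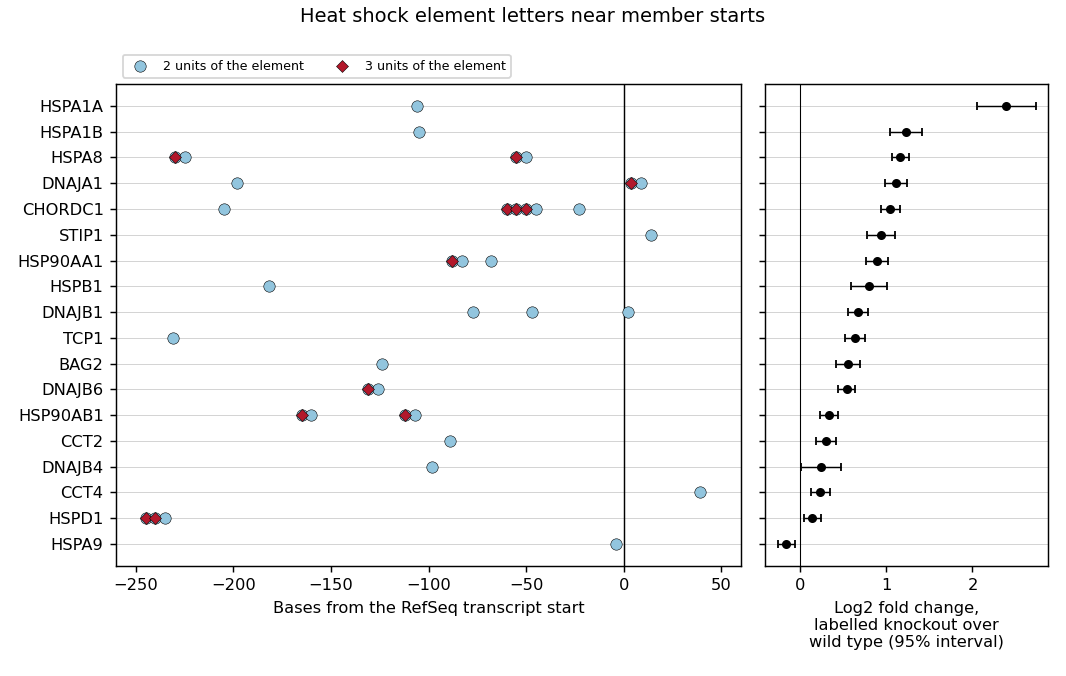
Position of each match to 2 or 3 units of the heat shock element, in bases from a RefSeq transcript start, for the 18 members with a match (left), ordered by their log2 fold change, labelled ERF knockout over wild type, with its 95% interval (right). Matches with 3 units occur in 7 members, from HSPA8 at 1.16 to HSPD1 at 0.14, and HSPA1A at 2.39 has 2 units.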

How the data were processed

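Total RNA of 3 libraries labelled ERF knockout and 2 labelled wild type was sequenced. Per the submitters' processing notes, the tools of the authors included edgeR 2.6.12, HTSeq, Cuffdiff, SAMtools and TopHat2 2.0.4, with hg19/GRCh37 as build and no role stated. Columns of the authors' deposited table hold, per the file headers, each gene's log2 fold change, mean log2 CPM, F score, p-value and adjusted p-value. Filter, normalization and strand setting: not given in the sources used here. Of 11979 rows, 3 name no gene and hold 21.5% of CPM; they were left out. The table has no columns per sample, so no model was fitted and no replicate compared.

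Deposited log2 fold changes were multiplied by -1 (HBG2 higher in the knockout). The standard error (SE) is the absolute log2 fold change over the square root of F, and 95% intervals use a t distribution; its 10.3 degrees of freedom were derived from F and p. Both are approximate, because whether the deposited fold changes were moderated is not stated. Calls use the deposited adjusted p below 0.05. Only the arithmetic of the SE, degrees of freedom and p adjustment was checked on simulated data. That check cannot show whether the SE suits the authors' model, and it did not cover the sign or the promoter search. Python 3.11.15, pandas 2.3.3 and scipy 1.17.1 were used.

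The members and lists were chosen with earlier results of these data known. Named genes are all members, with full values for those at 1 or more in log2 fold change and the highest and lowest of each class, and the 3 highest and 3 lowest called genes of other lists. Alternatives were a threshold of 0.01, p adjusted over named genes, a minimum of 2 log2 CPM, a centre at the median of well-expressed genes, and a minimum absolute log2 fold change of 0.5.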

Additional observations from a re-analysis of the deposited data

How the results depend on the processing

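Adjusting over named genes, or over genes of at least 2 log2 CPM, left the calls of all 41 members as they were. With adjusted p below 0.01, 4 members no longer passed (DNAJA2, HSPA9, HSPD1 and HSPBP1), so that 0 members and 0 HSP70 genes were lower and 1 of the HSP60, HSP10 and small HSP genes was higher. With a minimum absolute log2 fold change of 0.5, by construction fewer members passed: 17 were higher and 0 lower, among them 1 BAG gene, 1 HSP90, 1 of the HSP60, HSP10 and small HSP genes and 2 TRiC subunits, and 0 HSP70 genes were lower. Centring on the median of genes with 5 log2 CPM or more subtracted 0.03; HSPD1 (0.10) and HSPBP1 (0.12) then did not pass, leaving 1 higher gene in the class of HSPD1, and HSF2 turned to -0.0074. Over all genes, counts were 2566 higher and 3532 lower after centring, 2093 and 2206 at 0.01, 670 and 1158 with the minimum of 0.5, and 2987 and 3105 as deposited. The mean of the members was 0.49, above their median of 0.30, and 48.6% of members had a promoter match with 2 units but 18.9% with 3. No paired analysis was possible because the authors' deposited table has no value per library, and for the same reason no library was left out in turn. Depth is unknown; low members such as HSPE1 have the widest intervals.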

Other observations

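Outside the members, 35 measured genes held 3 units of the heat shock element, and their values were read after the match. In the authors' deposited table, 9 of them were higher (25.7%), 5 lower (14.3%) and the rest not past the threshold, with a median log2 fold change of 0.08. Of the 8405 other measured genes without such a match, 26.6% were higher and 25.2% lower. The share that was higher was thus near that of genes without a match. The surface protein gene CD83 stood at 0.81, the mitochondrial phosphatase gene PGAM5 at 0.53 and the RNA-binding protein gene RBM23 at 0.41, the highest of these in the authors' deposited table. Also higher were MRPL51 at 0.30, HNRNPA2B1 at 0.28, TEX2 at 0.24, ATP2C1 at 0.22, the nuclear export receptor gene XPO1 at 0.21 and TMX2 at 0.19. The lower genes were the noncoding host gene GAS5 at -0.42, ZNF83 at -0.40, OSBP at -0.27, PRKCSH at -0.22 and IFT172 at -0.22 in the authors' deposited table.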
